A study of Mus musculus with 8 samples.

Results

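Endothelial, smooth muscle and fibroblast microRNAs were examined in whole testis of male C57Bl/6 mice. Members were taken by name, as the mature arms of miR-126, miR-143, miR-145, miR-199a, miR-199b and miR-214. Their values were not used for this, though earlier results of these data were known. Of the 20558 small RNAs counted, 730 are entered as miRNAs and 12 of these are members. The study asked whether the RNA of males fed a Western-like diet (WD), which is rich in fat and sugar, differs from that of males on standard chow (SD). Small RNA was sequenced for 4 SD mice (named M1N, M2N, TN1, TN2) and 4 WD mice (M1W, M2W, M3W and M5W), 1 library per animal. All 8 are labelled as adult animals of the same strain. The labels give 4 weeks of age for the start of the fat-rich diet and 4 months for mating, and they describe that diet for the controls too, whereas the study's methods give chow to the SD mice and an earlier week for the start.

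A miRNA is cut from a hairpin precursor whose arms can each leave a mature strand, called the 5p and the 3p arm, and it represses messenger RNAs that pair with its seed, bases 2 to 8. Seminiferous tubules, which hold the germ cells and Sertoli cells, are wrapped in contractile peritubular myoid cells and lie in an interstitium of blood vessels, fibroblasts, macrophages and Leydig cells. miR-126 is the best known endothelial miRNA and lies in the gene for the vessel protein EGFL7. miR-143 and miR-145 share a primary transcript and are known for maintaining the contractile state of smooth muscle. miR-199a, from its gene Mir199a-2, and miR-214 share the transcript Dnm3os, which is active in mesenchyme.

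Total counts per mouse ranged from 2064562 (TN2) to 3253798 (M2N), so that 3 counts, the smallest abundance that could be shown, correspond to between 0.933 and 1.39 CPM. CPM, a count relative to the library's total and scaled here by edgeR's TMM factors, is the unit of all levels. PCR copies are not independent molecules, so that limit allows for counting error alone. The tissue label was checked with miRNAs of spermatogenic cells, of which miR-34c-5p was the most abundant at a mean of 8033 CPM. Skeletal and heart muscle miRNAs were low, with miR-1a-3p at a mean of 34.1 CPM.
Some libraries stood apart from the rest. On the first principal component of the 407 other miRNAs tested, which held 40.5% of the variance, M1N, M2N and M2W had scores of -9.01, -6.85 and -5.96, while the remaining 5 scored from 2.06 to 7.72. Over all small RNAs, where the first component held 48.2%, only M1N (-69.6) and M2N (-34.1) lay below 0, and M2W, at 4.13, was with the others (7.12 to 33.2). Each pair of SD mice was also used alone as the control, and each mouse was left out in turn.

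All 12 members were detected in every mouse, and their mean levels spanned from 3572 CPM for miR-145-5p to 2.99 CPM for miR-143-5p. miR-145-5p alone took 3.40% of the miRNA counts and ranked 7 among the 576 mature miRNAs by mean count. miR-126-3p followed at 1276 ± 320 CPM (SD, n = 8), rank 18. Beside a ± value, SD is the standard deviation and not the diet. miR-126-5p (431 ± 138 CPM), miR-143-3p (363 CPM) and miR-199a-5p (337 ± 64.6 CPM) formed the next step, and their order was not fixed: miR-126-5p exceeded miR-143-3p in 5 of 8 mice and miR-143-3p exceeded miR-199a-5p in 5 of 8.
miR-199a-3p (203 ± 56.7 CPM) lay below miR-199a-5p in 8 of 8 mice. miR-214-3p (127 ± 44.8 CPM) and miR-199b-5p (120 ± 44.6 CPM) were close, with miR-214-3p higher in 4 mice, miR-199b-5p in 3 and equal counts in 1, and miR-199b-3p was at 101 ± 28.2 CPM. The minor arms miR-145-3p (17.7 ± 7.83 CPM) and miR-214-5p (15.2 ± 5.29 CPM) were close too, with miR-145-3p higher in 4 mice, miR-214-5p in 3 and equal counts in 1, and miR-143-5p was lowest, with between 5 and 12 counts per mouse. A read covers a whole mature miRNA, so these levels were not divided by length.

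**Figure D1:**
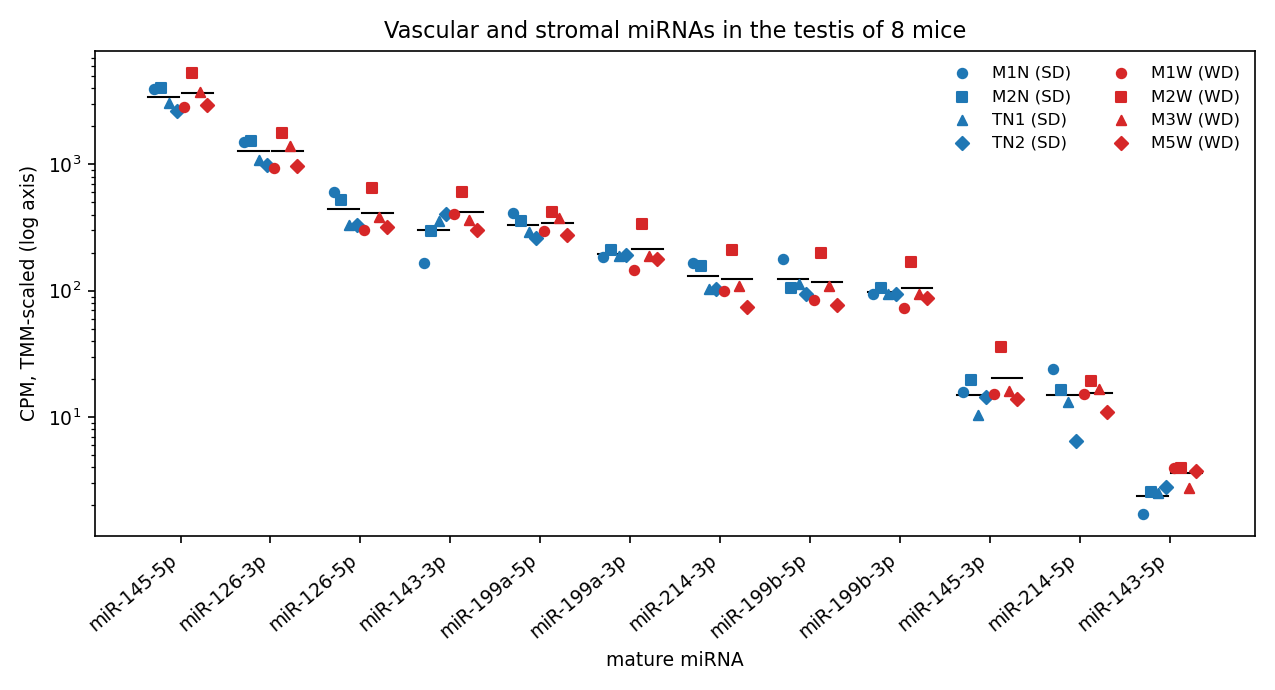
Level of each member in each mouse, in TMM-scaled CPM on a log axis, with blue points for the 4 SD mice, red points for the 4 WD mice and a black line at each group's mean. M2W is the highest of the 8 mice in 11 of the 12 members, and no member separates the diets.

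For the 11 members tested, no difference between WD and SD mice beyond the spread between animals was found. With 11 left after edgeR's removal of low counts, 0 had an adjusted p under 0.05 (edgeR, quasi-likelihood test, Benjamini-Hochberg over 16955 small RNAs), where 0% of all small RNAs were called. Without adjustment, 0 of 11 had a p of 0.05 or less by edgeR, against 14.6% of all small RNAs and 16.5% of the miRNA class. By DESeq2 the count was 0 of 11, against 12.9% of all small RNAs. By the study's criteria for miRNAs, a fold change of at least 1.5 with a p up to 0.1, 0 of 11 were found, against 10.7% of all small RNAs and 15.1% of the miRNA class.
In 0 of the 12 members did the diets separate without overlap, a pattern seen in 5.69% of the small RNAs tested and 8.37% of the miRNA class. Log2 fold changes (WD against SD) ran from -0.11 to 0.47 with a median of 0.05. The median was -0.01 over all small RNAs tested and 0.04 over the 355 other mature miRNAs tested. Above 0 were 7 of 11 members and 52.4% of the miRNA class. This direction changed with single mice: without M2W 10 of 11 members were below 0, with a median of -0.18, and without TN2 6 of 12, with a median of -0.02. Without M1N 0 of 12 were below 0, with a median of 0.17, and without M5W 0 of 11, with a median of 0.16. Summed over the 12 members, SD mice had 6373 ± 1137 CPM (SD, n = 4) and WD mice 6759 ± 2127 CPM (SD, n = 4). The largest part of these sums was miR-145-5p, at a mean of 3572 CPM over all mice. With 4 mice per diet the exact permutation test cannot give a p below 0.0286. In whole tissue, fewer cells of a type and less RNA per cell cannot be told apart.

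miR-126, the endothelial miRNA, had the log2 fold change nearest to 0 of the families, in its 3p arm. miR-126-3p, its more abundant arm and a repressor of inhibitors of VEGF signalling, was at 1500 CPM in M1N, 1537 in M2N, 1080 in TN1 and 989 in TN2, and at 944 CPM in M1W, 1788 in M2W, 1392 in M3W and 976 in M5W. The groups overlapped over nearly their whole range, with the highest and the lowest mouse both on the Western-like diet. SD mice averaged 1276 ± 282 CPM (SD, n = 4) and WD mice 1275 ± 398 CPM (SD, n = 4), giving a log2 fold change of -0.0022 with a standard error of 0.22 (edgeR, adjusted p = 0.996).
miR-126-5p, the other strand of the hairpin, was at 599, 521, 332 and 334 CPM in M1N, M2N, TN1 and TN2, and at 649 CPM in M2W with M1W, M3W and M5W between 304 and 384. M1N, M2N and M2W were again the 3 highest mice. The log2 fold change of miR-126-5p was -0.11 with a standard error of 0.25 (edgeR, adjusted p = 0.850). The ratio of the 3p to the 5p arm, from counts, was 3.02 ± 0.333 (SD, n = 8) and lay between 2.50 (M1N) and 3.63 (M3W), so the same arm was ahead in every mouse.
In the mouse assembly NCBIM37 (mm9), the build the authors aligned to, the precursor Mir126 spans bases 26446877 to 26446949 of chromosome 2, plus strand, and overlaps an exon of Egfl7 and an intron of Gm20532, both on the same strand.

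miR-145 and miR-143, the smooth muscle pair, differed from each other in their pattern over the mice. miR-145-5p, which represses factors that hold smooth muscle cells in a less contractile state, was at 3984 CPM in M1N, 4025 in M2N, 3083 in TN1 and 2656 in TN2, and at 2830 CPM in M1W, 5311 in M2W, 3740 in M3W and 2950 in M5W. M2W was the highest mouse and TN2 the lowest, with the other WD mice inside the range of the SD mice. The log2 fold change of miR-145-5p was 0.11 with a standard error of 0.22 (edgeR, adjusted p = 0.824). Its minor arm, miR-145-3p, was at 10.4 to 19.8 CPM in SD mice and at 14.0 to 36.0 CPM in WD mice, with M2W at the top. Its log2 fold change was 0.41 with a standard error of 0.31 (edgeR, adjusted p = 0.514), and without M2W it was -0.0017.
miR-143-3p had the largest log2 fold change among the 11 members tested with all 8 mice, and its diets overlapped. Its levels were 165 CPM in M1N, 296 in M2N, 355 in TN1 and 402 in TN2, and 402 CPM in M1W, 610 in M2W, 366 in M3W and 305 in M5W. M1N was the lowest mouse and M2W the highest, while the remaining 6 lay between 296 and 402 CPM with both diets mixed.
For miR-143-3p, SD mice averaged 305 ± 103 CPM (SD, n = 4) and WD mice 421 ± 132 CPM (SD, n = 4), giving a log2 fold change of 0.47 with a standard error of 0.26 (edgeR, adjusted p = 0.393). Without M2W it was 0.23 and without M1N 0.26, and without M1N, M2N or M1W that of miR-145-3p was larger, at 0.43, 0.58 and 0.53. Permuting the log2 CPM of miR-143-3p over all 70 assignments gave p = 0.229 (exact, two-sided). miR-143-5p did not pass the filter on low counts. Its levels were 1.71 to 2.78 CPM in SD mice and 2.76 to 3.95 CPM in WD mice, so that the diets overlapped only at TN2 and M3W. Its means were 2.39 ± 0.466 and 3.60 ± 0.564 CPM (SD, n = 4 each, exact permutation test, two-sided, p = 0.0571), from 5 to 12 counts per mouse.
Although miR-143 and miR-145 come from a shared transcript, the ratio of their main arms was not constant. From counts, miR-145-5p exceeded miR-143-3p by a factor of 24.1 in M1N, 13.6 in M2N, 8.68 in TN1 and 6.61 in TN2, and of 7.05 in M1W, 8.71 in M2W, 10.2 in M3W and 9.67 in M5W. All 4 WD mice lay between the SD mice TN2 and M2N. In contrast, the ratio of miR-145-5p to miR-126-3p, which come from different chromosomes, stayed between 2.62 and 3.02 in all 8 mice (mean 2.81 ± 0.168, SD, n = 8). These ratios were not tested between the diets, and the closing section gives a search for single mice that stood apart.

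The fibroblast miRNAs miR-214, miR-199a and miR-199b also differed between the diets by less than the spread between animals. miR-214-3p, a miRNA of mesenchymal cells, was at 165 CPM in M1N, 157 in M2N, 103 in TN1 and 102 in TN2, and at 98.9 CPM in M1W, 209 in M2W, 110 in M3W and 74.3 in M5W. M2W, M1N and M2N were the 3 highest mice, and the other 3 WD mice lay near or below TN1 and TN2. Its log2 fold change was -0.11 with a standard error of 0.27 (edgeR, adjusted p = 0.861), and without M2W it was -0.48 (unadjusted p = 0.0497, adjusted p = 0.330 in edgeR's test). miR-214-5p ranged from 6.48 CPM in TN2, where it rests on 14 counts, to 24.0 CPM in M1N, at a log2 fold change of 0.0097 with a standard error of 0.31 (edgeR, adjusted p = 0.990).
miR-199a-5p was at 416, 356, 290 and 261 CPM in M1N, M2N, TN1 and TN2, and at 297, 424, 376 and 275 CPM in M1W, M2W, M3W and M5W. It had the smallest spread of the 12, with 1.62-fold between the highest and the lowest mouse, and a log2 fold change of 0.05 with a standard error of 0.19 (edgeR, adjusted p = 0.912). miR-199b-5p, from a separate gene, was at 179 CPM in M1N and 200 in M2W and between 76.5 and 114 in the other 6 mice, with a log2 fold change of -0.07 with a standard error of 0.28 (edgeR, adjusted p = 0.913). The ratio of miR-199a-5p to miR-199b-5p was 2.33 in M1N and 2.12 in M2W, and between 2.55 and 3.59 in the rest. Their hairpins, printed below, are nearly alike over this arm, and the alignment allowed up to 2 mismatches. Whether reads crossed between these entries was not tested.
In NCBIM37 (mm9), Mir199a-2 lies on chromosome 1 from 164147945 to 164148054 and Mir214 from 164153499 to 164153608, with 5444 bases between them. Both are on the plus strand, in an exon of the non-coding Dnm3os and, on the opposite strand, in an intron of Dnm3. Mir199a-1 spans bases 21300939 to 21301008 of chromosome 9, minus strand, opposite an intron of Dnm2. From counts, miR-199a-5p exceeded miR-214-3p by a factor of between 2.03 (M2W) and 3.69 (M5W). The sequence of miR-199a-5p is the same from Mir199a-1 and Mir199a-2, so its reads cannot all be credited to Dnm3os.

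Mature sequences were matched for 6 of the 12 members in RefSeq's tables (GRCm38.p6), where miR-126-3p is listed under its later name miR-126a-3p. They are shown to tell which of these 6 share a whole sequence, with the seed, bases 2 to 8, in capitals and U for T.
miR-126-3p: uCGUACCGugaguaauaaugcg
miR-199a-5p: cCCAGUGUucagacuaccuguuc
miR-199a-3p: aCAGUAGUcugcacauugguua
miR-199b-3p: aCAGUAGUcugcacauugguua
miR-214-3p: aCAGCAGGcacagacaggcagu
miR-214-5p: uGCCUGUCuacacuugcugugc
miR-199a-3p and miR-199b-3p are the same 22 bases throughout. The seed of miR-214-3p is held by 2 mature miRNAs of the table, itself and miR-761.
The shared 3p sequence occurs once in each of 3 hairpins. They are printed to show why reads of this arm cannot be given to a gene, with the 22 bases in capitals, from chr9:21496495-21496564 (minus strand), chr1:162217814-162217923 (plus strand) and chr2:32318460-32318569 (plus strand) of GRCm38.p6.
Mir199a-1: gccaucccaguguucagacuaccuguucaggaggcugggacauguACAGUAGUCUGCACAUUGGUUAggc
Mir199a-2: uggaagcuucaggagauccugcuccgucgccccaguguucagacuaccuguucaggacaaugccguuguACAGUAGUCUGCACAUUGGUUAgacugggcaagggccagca
Mir199b: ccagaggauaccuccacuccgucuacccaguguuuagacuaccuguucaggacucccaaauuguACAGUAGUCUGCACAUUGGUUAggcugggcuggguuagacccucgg

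The deposited counts of these 2 names kept a fixed ratio. miR-199a-3p had 541, 664, 598 and 412 counts in M1N, M2N, TN1 and TN2, and miR-199b-3p had 273, 332, 297 and 204. In M1W, M2W, M3W and M5W the counts were 448, 767, 411 and 570 for miR-199a-3p and 223, 382, 204 and 284 for miR-199b-3p.
The share of miR-199b-3p in the sum lay between 33.1% and 33.5% in all 8 mice, and it departed from 1 part in 3, the share of 1 of 3 hairpins, by at most 1.67 counts. Independent assignment of each read would give a binomial SD of between 11.7 and 16.0 counts. The 2 entries therefore hold 1 measurement, and the difference between them carries no information on the genes. Their sum was at 279, 318, 282 and 285 CPM in M1N, M2N, TN1 and TN2, and at 221, 504, 283 and 266 CPM in M1W, M2W, M3W and M5W, so the SD mice were nearly level and M2W stood above all others. The log2 fold change of the sum was 0.13 with a standard error of 0.22 (edgeR, adjusted p = 0.790). The 5p arms of miR-199a and miR-199b together exceeded the 3p sum by a factor of between 1.24 (M2W) and 2.13 (M1N).

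Single mice stood out in many members. M2W was the highest of the 4 WD mice in 12 of 12 members and the highest of all 8 in 11 of 12, where it held these places in 64.8% and 39.2% of the 355 other mature miRNAs tested. Members that share a hairpin, a transcript or reads are not independent of each other in such a count. For miR-143-5p, M2W led M1W by only 3.947 to 3.945 CPM, on 9 against 12 counts, so that place is not secure. M2W also had the largest share of its counts on miRNAs, 12.7% against 9.23% to 10.7% in the other mice. As a percentage of the miRNA counts the 12 members still stood highest in M2W, at 7.65%, with the other mice between 5.58% and 6.66%. The part of the miRNA share in this result was not tested beyond that scaling.
Among SD mice, M1N and M2N both exceeded TN1 and TN2 in 7 of 12 members, as they did in 48.7% of the other mature miRNAs tested. In the sum of the 12 members M1N and M2N had 7328 and 7353 CPM, and TN1 and TN2 had 5664 and 5148 CPM. What the letters of the names stand for is not given in the sources used here, and mice named TN are all on the standard diet.

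**Figure D2:**
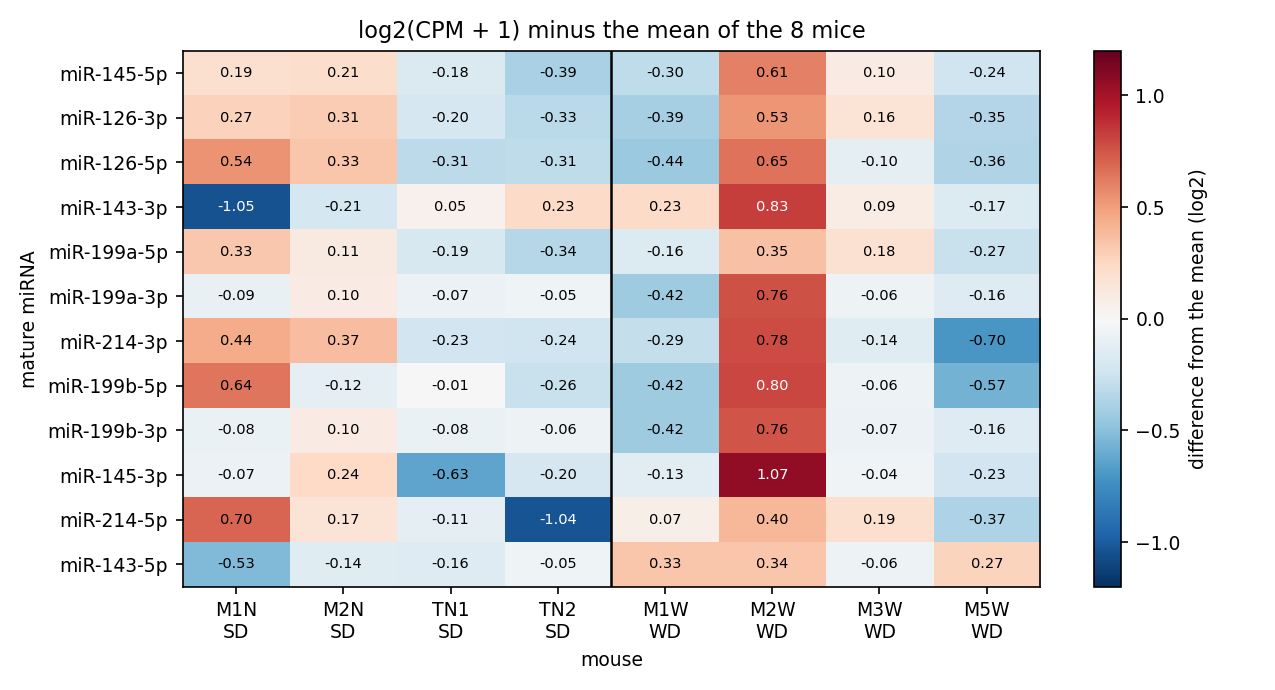
Difference of each mouse from the mean of the 8 mice on the log2(CPM + 1) scale, members in rows by falling mean level, mice in columns with SD left and WD right of the line. M2W is above the mean for all 12 members, and miR-143-3p in M1N, at -1.05, runs against the raised values of miR-145-5p, miR-126-3p and miR-214-3p in that mouse.

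The choice of control mice changed the direction of most members. Set against M1N and M2N alone, 7 of 12 members had a log2 fold change below 0, and set against TN1 and TN2 alone all 12 were above 0, where 42.8% and 71.5% of the miRNA class lay above 0. These comparisons share their WD mice. For miR-126-3p the values were -0.25 (standard error 0.23) and 0.30 (standard error 0.21), for miR-145-5p -0.11 (standard error 0.23) and 0.37 (standard error 0.20), for miR-199a-5p -0.17 (standard error 0.20) and 0.31 (standard error 0.17), and for miR-214-3p -0.39 (standard error 0.27) and 0.25 (standard error 0.27).
Against M1N and M2N, 1 of the 12 members, all of which passed the filter there, passed an adjusted p of 0.05 by edgeR, where 20.8% of all small RNAs and 18.5% of the miRNA class were called, and 35.5% and 35.8% without adjustment. This was miR-143-3p, higher in WD mice by a log2 fold change of 0.87 with a standard error of 0.26 (edgeR, adjusted p = 0.0219). Against TN1 and TN2 its log2 fold change was 0.15 with a standard error of 0.21 (edgeR, adjusted p = 1.00), and 0 of 12 members were called by edgeR at an adjusted or an unadjusted p of 0.05, where an adjusted p under 0.05 was reached by 0.134% of all small RNAs and 4.07% of the miRNA class, and an unadjusted p of 0.05 or less by 3.79% and 18.1%. The study's criteria were met by 1 of 12 members against M1N and M2N, miR-143-3p, where 31.3% of all small RNAs and 34% of the miRNA class met them. Against TN1 and TN2 they were met by 1 of 12, miR-145-3p, with a log2 fold change of 0.71, where the shares were 3.22% and 14.9%.

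Other miRNAs with a similar course over the 8 mice were sought by the root-mean-square difference of centred log2(CPM + 1), among 244 non-member miRNAs with a mean of 10 CPM or more. Nearest to both miR-126-3p and miR-145-5p was miR-24-3p, at 0.12 and 0.10 on the log2 scale, against medians of 0.36 and 0.36 over all candidates. The second was miR-301a-3p (0.13) for miR-126-3p and miR-107-3p (0.12) for miR-145-5p. miR-126-3p and miR-145-5p were nearer still to each other, at 0.08.
For miR-214-3p the nearest were miR-10b-5p (0.13) and miR-10a-5p (0.15), with a median of 0.42, and for miR-199a-5p they were miR-34a-5p (0.12) and miR-29a-3p (0.12), with a median of 0.34. For miR-143-3p the order was different. Its nearest were miR-200a-3p (0.18) and miR-379-5p (0.20), against a median of 0.59 over all candidates, its nearest members were miR-143-5p, with few counts, at 0.33 and miR-199a-3p at 0.44, and it was the farthest member from each of miR-126-3p, miR-145-5p, miR-199a-5p and miR-214-3p. The points compared are 8 libraries, so a shared library effect enters every such distance.

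Further miRNAs known from vessels were taken as a list of 23 arms. Of the 16 tested, 2 had an unadjusted p of 0.05 or less by edgeR, both higher in WD mice, and 0 had an adjusted p under 0.05. Their median log2 fold change was 0.10, beside 0.04 over all 366 mature miRNAs tested, of which 38 were higher and 16 lower at that unadjusted p, and 16.5% of the miRNA class reached it. These were miR-27a-3p, with 100 ± 12.4 CPM in SD and 148 ± 53.7 CPM in WD mice (SD, n = 4 each), where M2W had 229 CPM and the other WD mice 120 to 123, and miR-222-3p, at 5.99 to 11.1 CPM in SD and 9.33 to 15.3 CPM in WD mice. Their log2 fold changes were 0.57 and 0.66 (edgeR, adjusted p = 0.318 and 0.323). The most abundant, miR-24-3p, miR-10b-5p and miR-23a-3p, had log2 fold changes of 0.05, 0.04 and 0.17. M2W was the highest WD mouse in 16 of 16 arms, and the list's sum was 8840 CPM in M2W against 3911 to 4588 CPM in the other WD mice and 3967 to 6512 CPM in SD mice.
Of 11 tested arms from mesenchyme and fibroblasts outside the members, 1 had an unadjusted p of 0.05 or less by edgeR (16.5% of the miRNA class did), miR-125b-2-3p, with 5.12 ± 0.892 CPM in SD and 8.75 ± 2.06 CPM in WD mice (SD, n = 4 each, adjusted p = 0.318 in edgeR's test), and 0 passed the adjustment. The most abundant, miR-125b-5p, was at 4488 and 4137 CPM in M1N and M2N, 2451 and 2313 in TN1 and TN2, and 4285 in M2W, with the other WD mice between 1961 and 2371. miR-21-5p and miR-100-5p had log2 fold changes of 0.30 and -0.09. The list summed to between 4620 and 7810 CPM, with M1N, M2W and M2N as the 3 highest mice.
Muscle miRNAs summed to only 34.1 to 56.1 CPM, and of 2 arms tested, miR-1a-3p and miR-133a-3p, 0 had a p of 0.05 or less by edgeR. Their log2 fold changes were 0.12 and -0.10, and miR-499-5p was at 0.926 to 5.07 CPM, in TN2 below the 3 counts named above, and was not tested.

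Markers of other cells were set beside these levels. Blood and immune cell miRNAs summed to 582 CPM in M1N, 442 in M2N, 391 in TN1 and 337 in TN2, and to 302 CPM in M1W, 581 in M2W, 382 in M3W and 280 in M5W. M1N, M2W and M2N were thus again the 3 highest mice, led by miR-223-3p, a miRNA of myeloid cells, at 297, 226 and 205 CPM against 74.7 to 112 CPM in the other 5. The red cell miRNA miR-451 ran otherwise, with 63.1 CPM in M1N, 37.3 in M2N and 128 in M2W, and miR-142-5p lay between 64.4 and 104 CPM. Of the 6 blood arms tested, 1 had an unadjusted p of 0.05 or less by edgeR, miR-142-3p (log2 fold change 0.60, adjusted p = 0.326 in edgeR's test). The share of the miRNA class at that p was 16.5%.
Spermatogenic miRNAs, 36 arms, summed to 22894.6 CPM in M2W, inside the range of the other mice, 19422.8 (TN2) to 25358.5 CPM (M1N). As a share of the miRNA counts, which were the largest part of the library in M2W, they were lowest in that mouse. The other mice had 21.1% to 24.1%. The lower share in M2W was thus not a lower level in CPM. Of 35 tested, 9 had an unadjusted p of 0.05 or less by edgeR, 5 higher and 4 lower in WD mice, against 14.6% of all small RNAs and 16.5% of the miRNA class, and 0 passed the adjustment. The most abundant were miR-34c-5p, miR-34b-5p and miR-880-3p, with log2 fold changes of 0.08, -0.06 and -0.17. The lower 4, miR-449a-5p, miR-34b-3p, miR-34c-3p and miR-871-3p, had log2 fold changes of -0.62, -0.45, -0.50 and -0.49 against all SD mice, and of -0.06, -0.04, -0.13 and -0.14 against TN1 and TN2. The higher 5 were miR-471-5p (0.80), miR-883a-5p (0.54), miR-741-5p (0.50), miR-471-3p (0.47) and miR-743b-3p (0.41 in log2 fold change), and against TN1 and TN2 they had 0.40, 0.23, 0.21, 0.45 and 0.36. miR-202, a miRNA of the gonad, summed to 7021 CPM in M2W and to 3609 to 4487 CPM in the other 7. Its arms differed in sign, with log2 fold changes of 0.35 for miR-202-5p and -0.34 for miR-202-3p (edgeR, adjusted p = 0.391 and 0.507).
The members' sum was 0.426 of the spermatogenic sum in M2W, 0.289 in M1N and 0.316 in M2N, and 0.247 to 0.278 in the other 5 mice. The part of blood content or of the germ cell share in the members' levels was not tested.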

How the data were processed

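Testis small RNA was read on a SOLiD machine. Per the study's methods and the submitters' processing notes, which also name DESeq, the authors cut each read where the adaptor began, or after 31 bases, placed reads on mm9 using Bowtie with up to 2 mismatches, and named them from miRBase, Rfam and an ncRNA database. They deposited counts that were neither pooled nor normalised. Bowtie's version and the treatment of reads that match several places were not given in the sources used here.

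Counts were tested with edgeR 4.0.16 in R 4.3.3 (TMM, column totals as library sizes, filterByExpr with a minimum count of 10 and a minimum total of 15, quasi-likelihood test, two-sided, diet as the only term), with Benjamini-Hochberg adjustment over the whole table. Standard errors derive from the F statistic and are approximate. DESeq2 1.42.0 was an alternative, and others are given in the closing section. The procedure was tested on simulated data. The chi-square per degree of freedom over the 28 pairs of mice was at least 2.56, so no library was entered again under another name. Replicates are separate mice. The numbers that some SD and WD names have in common were not treated as pairs, since the sources used here do not give their meaning.

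The members and the lists of other miRNAs were chosen with earlier results of these data known. The text names every member, the 2 nearest other miRNAs for the main arm of each family, and in each list the 3 most abundant arms and those with a p of 0.05 or less. Sequences come from RefSeq (GRCm38.p6) and positions from GENCODE M1 (NCBIM37).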

Additional observations from a re-analysis of the deposited data

Results flagged for a closer look

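Within each diet, the highest or lowest mouse was set against its 3 companions, taking its distance to the nearest of them over the group's full range (the gap). This gap passed Dixon's 95% critical value in 10 of 62 groups, and chance gives about 1 in 20 groups, here 3.1. M2W accounted for 6 of the 10, and these are not independent of each other. Values of M2W exceeded those of its companions for miR-145-3p (36.0 CPM against 14.0 to 16.1, gap 0.903), for the ratio of miR-214-3p to miR-214-5p (10.8 against 6.54 to 6.83, gap 0.933), and for the sums of the vessel list (8840 CPM against 3911 to 4588, gap 0.863), the mesenchyme list (7553 CPM against 4665 to 4873, gap 0.928) and miR-202 (7021 CPM against 4187 to 4487, gap 0.894). M2W was below the other WD mice for the ratio of miR-199a-5p to miR-199b-5p (2.12 against 3.42 to 3.59, gap 0.888).

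M3W was below the other WD mice for the ratio of miR-145-5p to miR-126-3p (2.69 against 2.97 to 3.02, gap 0.843) and for the sum of muscle miRNAs (34.1 CPM against 52.6 to 56.1, gap 0.840). M2N was above the other SD mice for miR-199b-3p (106 CPM against 93.6 to 94.5, gap 0.924), an entry that shares its reads with miR-199a-3p. TN2 had the smallest library on the standard diet, 2064562 counts against 3101032 to 3253798 (gap 0.872).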

How the results depend on the processing

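Of 189 recomputed log2 fold changes of the 11 members tested, 147 kept their direction and their side of the threshold, 39 changed sign, in 10 members, and 3, all of miR-143-3p, passed an adjusted p of 0.05 by edgeR. The sign of miR-126-3p turned to 0.058 with column totals, to 0.0059 with no filter and to 0.010 with at least 10 counts in every mouse. Column totals placed the median of all small RNAs at 0.05.

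Against M1N and M2N alone, log2 fold changes were -0.11 (miR-145-5p), -0.17 (miR-199a-5p) and -0.39 (miR-214-5p), and 1 member passed each of the unadjusted p, the study's criteria and the adjusted p. Against TN1 and TN2 alone they were 0.30 (miR-126-3p), 0.31 (miR-126-5p), 0.25 (miR-214-3p) and 0.16 (miR-199b-5p), and 1 member, miR-145-3p, met the study's criteria. The cause was not tested.

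With the replicate block on the M1 and M2 mice, values were -0.044 (miR-145-5p), -0.12 (miR-199a-5p) and -0.22 (miR-214-5p), and 1 member, miR-143-3p (1.16, adjusted p = 0.0131 by edgeR, range over its alternatives 0.0131 to 1.00), passed each count, where 22.6% of all small RNAs passed without and 6.9% with adjustment. The same mice without the block gave -0.10 (miR-199a-5p), 0.0038 (miR-199b-5p), -0.23 (miR-214-5p) and again 1 in each count, where the shares were 24.1% and 6.13%. The deviations of same-numbered mice had correlations of -0.078 and 0.243. These pairs are too few to show whether a number marks anything shared.

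Leaving out each mouse in turn gave ranges of -0.11 to 0.22 (miR-145-5p), -0.0017 to 0.58 (miR-145-3p), -0.21 to 0.12 (miR-126-3p), -0.41 to 0.066 (miR-126-5p), 0.23 to 0.63 (miR-143-3p), -0.066 to 0.18 (miR-199a-5p), -0.18 to 0.27 (miR-199a-3p), -0.18 to 0.27 (miR-199b-3p), -0.45 to 0.16 (miR-199b-5p), -0.48 to 0.083 (miR-214-3p) and -0.21 to 0.31 (miR-214-5p). The count of members called without adjustment ran from 0 to 1, where 7.49% (without M5W) to 22.8% (without TN2) of all small RNAs were called. By the study's criteria the count also ran from 0 to 1. It was 1 without TN2 and without M5W, each time miR-143-3p (log2 fold changes 0.63 and 0.60), and 1 without M3W. There miR-143-3p, at 0.53, fell short of a 1.5-fold change, and the member was miR-143-5p, which passed the filter. The share of all small RNAs at the study's criteria was not computed for these settings or for the M1 and M2 mice. These counts therefore have no background to be read against. Named by the unadjusted count were miR-143-3p without TN2 (edgeR, adjusted p = 0.173) and without M5W (edgeR, adjusted p = 0.628), and miR-214-3p without M2W (edgeR, adjusted p = 0.330). Summing miR-199a-3p and miR-199b-3p was chosen after seeing the data. The counts of miR-143-5p, 5 to 12, limit its precision.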
